A study of Mus musculus with 45 samples.

Results

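Liver transcripts of 5 female C57BL/6 mice given 1 µg/kg of the dioxin TCDD were compared with those of 5 mice given the sesame oil vehicle, which makes 10 of the 45 libraries of a study with 9 dose groups of 5. The 10 libraries were chosen by their labelled dose alone, and every gene was eligible. TCDD was given by oral gavage every 4 days for 28 days, beginning in young animals 28 days after birth, and both groups shared this schedule, the strain, the sex and the vehicle. The sample labels call the gavage daily, in conflict with the schedule in the methods. They also call the mice ovariectomized, whereas the methods mention no such surgery and refer to differences in estrous stage. Each library came from the liver of 1 mouse. Of 8 TCDD doses between 0.01 and 30 µg/kg, 1 µg/kg lies in the middle, so the comparison asks which liver functions had been induced or repressed at an intermediate dose.

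TCDD, in full 2,3,7,8-tetrachlorodibenzo-p-dioxin, is a persistent ligand of the aryl hydrocarbon receptor (AhR), a cytosolic transcription factor held by a chaperone complex until a ligand binds. The receptor then enters the nucleus, pairs with ARNT and binds dioxin response elements, whose core is GCGTG. Its best known targets in liver are cytochromes P450 of the Cyp1 family, conjugating enzymes that make foreign compounds soluble, and the repressors *Ahrr* and *Tiparp*, which feed back on the receptor.

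Reads on genes numbered 14.6 to 20.6 M in the vehicle libraries and 13.4 to 34.1 M in the treated ones. Values are CPM, read counts scaled to a common library size, and a gene was called when the edgeR quasi-likelihood test, fitted to all 45 libraries, gave a Benjamini-Hochberg adjusted p under 0.05. The tissue label was in keeping with its markers, since 8 hepatocyte markers summed to 114891 to 151385 CPM in vehicle and 109766 to 134809 CPM in treated livers, while 5 of 8 pancreas and 3 of 5 adipocyte markers had no read in any of the 10. TCDD 1 µg/kg replicate 2, the deepest library, stood apart. Over 10613 genes with a mean of at least 50 reads it differed from the rest of its group by 0.377 on the log2 scale (root mean square), against 0.211 to 0.277 for the other 9 libraries. Among genes picked after their values were seen, the clock gene *Arntl* stood at 0.685, 13.1, 1.23, 0.899 and 0.91 CPM in treated replicates 1 to 5, *Per1*, which peaks in the opposite phase, at 49.5, 1.77, 29.4, 35.2 and 51.5 CPM, and *Cyp7a1*, the rate-limiting enzyme of bile acid synthesis, at 438, 63, 497, 779 and 878 CPM. In all of these, replicate 2 lay outside the range of the other 4 treated livers and of the 5 vehicle livers, where *Arntl* ran from 0.431 to 1.36, *Per1* from 34.6 to 73.2 and *Cyp7a1* from 204 to 744 CPM. The part of this library in the results was examined by leaving it out, and what set it apart was not tested.

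**Figure D1:**
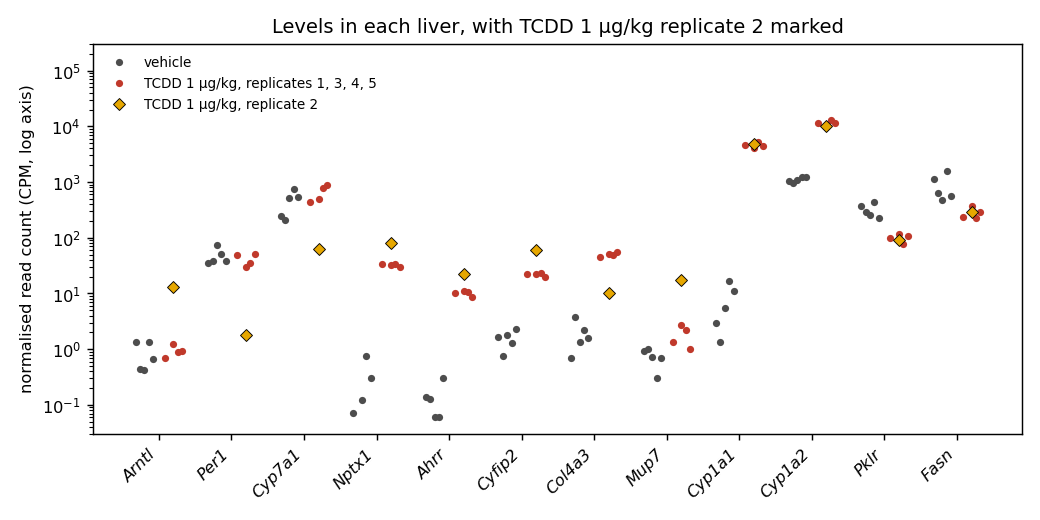
Normalised read counts (CPM, log axis) of 12 genes in the 5 vehicle livers (grey), 4 livers given 1 µg/kg TCDD (red) and replicate 2 of that group (yellow diamond), each symbol 1 liver; a vehicle value of 0 for *Nptx1* is not drawn. Replicate 2 lay far from the other treated livers in *Arntl*, *Per1*, *Cyp7a1*, *Nptx1*, *Ahrr*, *Cyfip2*, *Col4a3* and *Mup7*, and among them in *Cyp1a1*, *Cyp1a2*, *Pklr* and *Fasn*.

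At 1 µg/kg, more genes were induced than repressed, and the inductions were larger. Of 17464 genes tested, 217 were called higher (1.24%) and 90 lower (0.515%), with median log2 fold changes of 1.13 and -0.75 among those called and 0.00 over all genes. A fold change of at least 2 was reached by 120 of the higher (0.687% of genes tested) and 34 of the lower (0.195%), and one of at least 4 by 46 and 12. Of the genes called higher, 51 averaged under 1 CPM in vehicle livers, against 7 of those called lower. Without replicate 2, 163 were called higher and 56 lower, including 158 of the 217 and 49 of the 90, and 97 and 28 changed at least 2-fold. All 307 kept their direction without it.

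**Figure D2:**
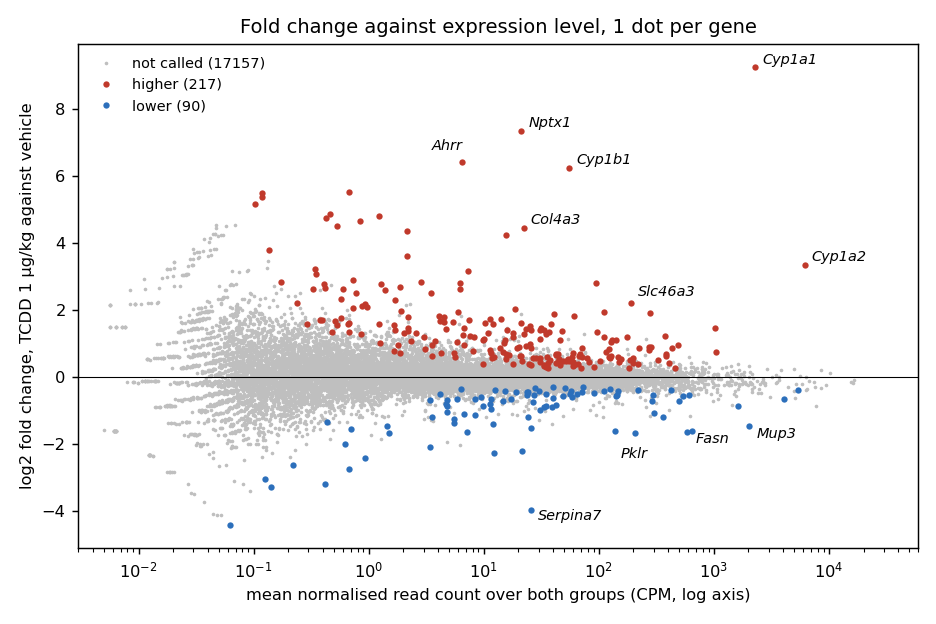
Log2 fold change at 1 µg/kg against vehicle (vertical axis) by mean CPM over both groups (horizontal, log axis), 1 dot per gene, with 217 genes called higher in red, 90 called lower in blue and all others in grey. *Cyp1a1* at 9.25 and *Serpina7* at -3.99 are the extremes among the genes named in the plot.

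The largest fold change of all was that of *Cyp1a1*, a member of the AhR gene battery, in which 10 of 18 genes tested were called higher and 0 lower, beside 1.24% and 0.515% of all genes. The same shares of all genes stand beside each list count given below. The battery is a list of known receptor targets, and its median log2 fold change was 0.93, or 0.65 without replicate 2, which left the same number of calls. This P450, which oxidises aromatic hydrocarbons and is the classical marker of the receptor, lies at chr9:57687928-57703824 (GRCm38). It stood at 2.9, 1.34, 5.48, 16.6 and 11.1 CPM in the 5 vehicle livers and at 4585, 4774, 4001, 5139.8 and 4464 CPM in the 5 treated ones. Every treated liver was far above every vehicle liver, and the fitted increase was 608-fold (log2 fold change 9.25 ± 0.81 (SE), edgeR adjusted p = 3.83e-11). Its neighbour *Cyp1a2* (chr9:57676937-57683703), a P450 already abundant in normal liver, rose from 1040.3, 942, 1094, 1221 and 1228 CPM to 11649.5, 10041, 9889, 12795 and 11586 CPM. The groups were far apart and tight, and the increase was 10.1-fold (log2 fold change 3.34 ± 0.14 (SE), edgeR adjusted p = 2.80e-21). *Cyp1b1* (chr17:79701537-79715061), the extrahepatic member of the family, was nearly silent at 0.849, 0.636, 0.616, 2.48 and 2.48 CPM and reached 92.2, 87.3, 62.3, 213 and 91.5 CPM, 75.3-fold higher (log2 fold change 6.23 ± 0.63 (SE), edgeR adjusted p = 1.84e-09). The highest of these values, in replicate 4, stood well above those of the other treated livers.

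*Ahrr* (chr13:74211118-74292331), which encodes the AhR repressor, a competitor for ARNT, stood at 0.142, 0.127, 0.0616, 0.0619 and 0.303 CPM in vehicle livers, 12 reads in all 5, and at 10.4, 22.6, 11.1, 10.8 and 8.76 CPM in treated ones. The groups did not overlap, replicate 2 was the highest, and the increase was 85-fold (log2 fold change 6.41 ± 0.50 (SE), edgeR adjusted p = 1.75e-12; 6.07, adjusted p = 7.64e-12 without replicate 2). The second feedback repressor, *Tiparp*, an ADP-ribosyltransferase that inactivates the receptor, behaved otherwise. It stood at 13.7, 16.5, 15.5, 11.7 and 11 CPM in vehicle and 16.3, 23.2, 14.9, 12.7 and 14.1 CPM in treated livers, the groups overlapped, and it was not called (log2 fold change 0.26 ± 0.17 (SE), edgeR adjusted p = 0.556). The 95% interval of its fold change ran from 0.945 to 1.51.

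Promoters of induced battery genes are shown where they hold GCGTG, the core of the dioxin response elements. Binding of the receptor to these windows was not tested. Windows run from 250 bases before to 50 bases after the start site in RefSeq (GRCm38.p6), 5′ to 3′ on the gene's strand, with GCGTG or its reverse complement CACGC in capitals. Of the 5 battery genes called and at least 2-fold higher, *Cyp1a1*, *Ahrr* and *Cyp1b1* had a core in this window. For 1 of the 5 no RefSeq promoter was available, so its window was not read.
Cyp1a1 (chr9:57697363-57697662, plus strand): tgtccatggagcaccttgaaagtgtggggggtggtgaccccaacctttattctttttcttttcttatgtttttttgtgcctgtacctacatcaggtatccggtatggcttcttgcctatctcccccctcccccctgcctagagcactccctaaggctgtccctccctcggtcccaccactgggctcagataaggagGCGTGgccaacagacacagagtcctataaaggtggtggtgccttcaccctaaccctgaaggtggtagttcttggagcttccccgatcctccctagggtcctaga
Ahrr (chr13:74292282-74292581, minus strand): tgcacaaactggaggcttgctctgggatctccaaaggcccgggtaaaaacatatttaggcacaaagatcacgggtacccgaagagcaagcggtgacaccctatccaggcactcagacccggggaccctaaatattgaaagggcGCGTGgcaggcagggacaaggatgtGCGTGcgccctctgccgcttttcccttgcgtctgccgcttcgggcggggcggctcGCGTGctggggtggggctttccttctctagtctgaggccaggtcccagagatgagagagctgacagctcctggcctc
Cyp1b1 (chr17:79715012-79715311, minus strand): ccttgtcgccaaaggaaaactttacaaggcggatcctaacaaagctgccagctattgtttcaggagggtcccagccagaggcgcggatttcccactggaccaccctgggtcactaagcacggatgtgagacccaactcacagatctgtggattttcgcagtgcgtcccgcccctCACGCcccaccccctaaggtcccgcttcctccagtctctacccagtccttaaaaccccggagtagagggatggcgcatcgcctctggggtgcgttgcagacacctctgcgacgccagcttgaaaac
The *Cyp1a1* window had 1 core, beginning 54 bases before the start site. *Ahrr* had 3, beginning 107, 82 and 27 bases before it, and *Cyp1b1* had 1 on the other strand, 76 bases before it. The *Tiparp* window also had 1 core although the gene was not called, and the *Cyp1a2* window had none. Over all tested genes with a RefSeq promoter, 52.2% of 11932 had the core on either strand, against 50% of 168 genes called higher and 42.9% of 63 called lower. Among genes called and at least 2-fold higher the share was 39.6% of 91. The letters of the antioxidant response element, TGACNNNGC on either strand, occurred in 16.7% of all, 17.9% of higher and 19% of lower genes. A match in such a short window is a description and not a binding site.

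**Figure D3:**
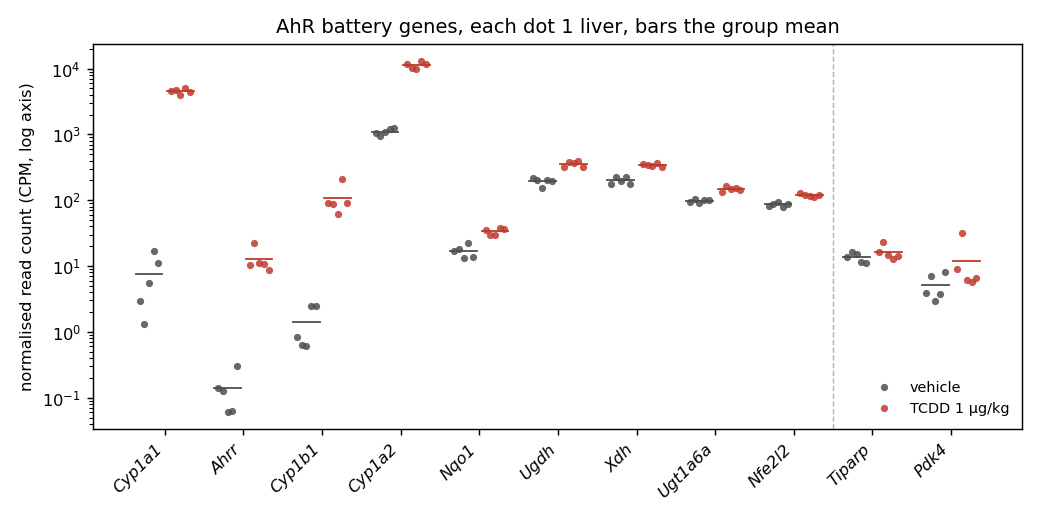
Normalised read counts (CPM, log axis) of 11 AhR battery genes in 5 vehicle livers (grey) and 5 livers given 1 µg/kg TCDD (red), with each dot 1 liver and each bar a group mean. The 9 genes left of the dashed line were called and their groups do not overlap, whereas *Tiparp* and *Pdk4* to its right were not called.

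The other battery genes moved by smaller factors from higher levels. The quinone reductase *Nqo1* stood at 17, 18.3, 13.3, 22.6 and 13.9 CPM in vehicle and 34.9, 29.2, 30.1, 37.2 and 36.3 CPM in treated livers. Its groups did not overlap and it rose 1.97-fold (log2 fold change 0.98 ± 0.18 (SE), edgeR adjusted p = 7.17e-04). *Xdh*, the xanthine dehydrogenase of purine breakdown, rose 1.72-fold (log2 fold change 0.78 ± 0.10 (SE), edgeR adjusted p = 1.74e-06), and *Nfe2l2*, which encodes the antioxidant regulator Nrf2, 1.37-fold (log2 fold change 0.46 ± 0.09 (SE), edgeR adjusted p = 0.00169). Of those not called, *Gsta1* was at 1.12 ± 0.55 (SE), *Gsta2* at -0.19, *Ugt1a6b* at 0.12, *Inmt* at -0.66 and *Slc7a5* at -0.37 on the log2 scale. *Pdk4*, at 1.21, was highest in replicate 2, which had 31.3 CPM against 5.78 to 8.91 in the other 4, and stood at 0.38 without it. The aldehyde dehydrogenase *Aldh3a1*, a battery gene in other tissues, had 0 reads in the 5 vehicle and 2 in the 5 treated libraries. The receptor itself was level. *Ahr* averaged 73.6 ± 14.7 and 73.8 ± 13.9 CPM (SD, n = 5), and edgeR called 0 of the 6 tested genes of its complex, with 2 at an unadjusted p under 0.05 and 0 by DESeq2. Over all genes, 2270 of 17464 had an unadjusted p under 0.05, which stands beside each such list count below. *Arnt* stood at 0.07, *Hsp90ab1* at 0.28, *Hsp90aa1* at -0.14 and *Ptges3* at -0.44 on the log2 scale, and *Arnt2* had too few reads to be tested.

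Conjugation by glucuronic acid was the metabolic list with the most members called higher. UDP-glucuronosyltransferases attach glucuronic acid to drugs, bilirubin, steroids and thyroxine, and 7 of the 19 genes on their list were called higher and 0 lower (5 without replicate 2), with a list median of 0.28 (0.16 without replicate 2). Over all genes 1.24% were called higher and 0.515% lower. *Ugt1a9* stood at 88.5, 107, 76.9, 85.2 and 65 CPM in vehicle and 264, 157, 131, 155 and 158 CPM in treated livers. No treated liver was as low as any vehicle liver, and the increase was 2.05-fold (log2 fold change 1.03 ± 0.20 (SE), edgeR adjusted p = 9.69e-04). *Ugt2b35* rose 2.15-fold (log2 fold change 1.103 ± 0.21 (SE), edgeR adjusted p = 0.00103), *Ugt2b37* 2.97-fold with overlapping groups (log2 fold change 1.57 ± 0.39 (SE), edgeR adjusted p = 0.02) and the battery member *Ugt1a6a* 1.5-fold (log2 fold change 0.59 ± 0.11 (SE), edgeR adjusted p = 4.28e-04). *Ugt1a7c* was the largest by fold, 3.21-fold, but rested on 15 vehicle and 57 treated reads and was no longer called without replicate 2 (edgeR adjusted p = 0.0831). Its call ended without any 1 of 7 of the 10 libraries (highest adjusted p = 0.118, without vehicle replicate 1). The other two calls were *Ugt1a1* and *Ugt1a10*. Members of the Ugt1a locus share their last exons, where reads cannot be assigned to one gene, so their values come from what is unique to each. On the substrate side, *Ugdh*, which makes UDP-glucuronic acid, stood at 218, 205, 153, 201 and 197 CPM in vehicle and 320.1, 384, 367, 391 and 319.9 CPM in treated livers, 1.83-fold higher without overlap (log2 fold change 0.87 ± 0.15 (SE), edgeR adjusted p = 1.77e-04), while *Ugp2*, a step earlier, was not called (log2 fold change -0.51 ± 0.18 (SE), edgeR adjusted p = 0.158). The call of *Ugt2b37* ended without any 1 of 3 of the 10 libraries (highest adjusted p = 0.0877, without vehicle replicate 1).

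Other conjugation families changed in single members only. Glutathione S-transferases couple glutathione to reactive compounds, and 2 of 21 were called higher and 0 lower, beside a list median of -0.17 (2 calls and a median of -0.03 without replicate 2). The share called higher was 9.52%, against 1.24% of all genes. *Gstp1* rose from 68.4, 53.5, 49.3, 47.8 and 55.5 CPM to 149, 133, 132, 159 and 124 CPM, 2.54-fold without overlap (log2 fold change 1.34 ± 0.16 (SE), edgeR adjusted p = 1.26e-07), and its low neighbour *Gstp2* stood at 0.0505 to 0.708 CPM in vehicle and 0.838 to 1.957 CPM in treated livers. *Gstp3*, outside the list and looked at because it is the third gene of this cluster, was lower (log2 fold change -0.65 ± 0.18 (SE), edgeR adjusted p = 0.0406), a call that ended without any 1 of 7 of the 10 libraries (highest adjusted p = 0.139, without vehicle replicate 1). These copies are near-identical, and reads that matched more than 1 of them were left out of the counts. Among 13 sulfotransferases, which attach sulfate to steroids and phenols, *Sult5a1* rose and *Sult2a7* fell. *Sult5a1* stood at 20.5, 18.1, 33.7, 10.4 and 36.4 CPM in vehicle and 96.5, 189, 192, 192 and 156 CPM in treated livers, 6.91-fold higher (log2 fold change 2.79 ± 0.30 (SE), edgeR adjusted p = 1.02e-08). *Sult2a7*, which may share reads with other Sult2a copies, stood at 47.8, 21.2, 21.8, 44.1 and 43.3 CPM and 10.7, 5.19, 8.48, 7.32 and 7.22 CPM (log2 fold change -2.21 ± 0.50 (SE), edgeR adjusted p = 0.00849). Neither pair of groups overlapped, so that 2 enzymes of the same reaction class moved in opposite directions. The call of *Gstp2* ended without any 1 of 6 of the 10 libraries (highest adjusted p = 0.123, without vehicle replicate 5).

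Of the carboxylesterases, which cleave ester drugs, *Ces2c* rose 2.96-fold (log2 fold change 1.57 ± 0.24 (SE), edgeR adjusted p = 2.81e-05) and *Ces1b* 1.46-fold (log2 fold change 0.55 ± 0.12 (SE), edgeR adjusted p = 0.00549). Outside the Cyp1 family the P450s were mostly level. In the Cyp2 family 1 of 32 was called higher, *Cyp2d9* (log2 fold change 1.101 ± 0.27 (SE), edgeR adjusted p = 0.0214; 0.90, adjusted p = 0.126 without replicate 2), and 1 lower, *Cyp2d40* (log2 fold change -0.89 ± 0.17 (SE), edgeR adjusted p = 0.00143). Each call was 3.12% of this list, while 1.24% of all genes were called higher and 0.515% lower. The call of *Cyp2d9* ended without any 1 of 3 of the 10 libraries, replicate 2 among them. In the list of Cyp3a, Cyp4 and P450 reductase genes, 2 of 22 were lower (9.09%, against 0.515% of all genes) and 0 higher. *Cyp4a14*, a fatty acid hydroxylase under PPARα, stood at 1112, 968, 987, 822 and 993 CPM in vehicle and 611, 403, 134, 148 and 294 CPM in treated livers, without overlap but with a wide treated range (log2 fold change -1.62 ± 0.44 (SE), edgeR adjusted p = 0.0397). Its call ended without any 1 of 9 of the 10 libraries (highest adjusted p = 0.137, without TCDD 1 µg/kg replicate 4). *Cyp3a59* fell less (log2 fold change -0.92 ± 0.22 (SE), edgeR adjusted p = 0.0169), and its call ended without any 1 of 3 of the 10 libraries (highest adjusted p = 0.0622, without TCDD 1 µg/kg replicate 4). For the antioxidant genes under Nrf2, edgeR called 0 of 21, with 2 at an unadjusted p under 0.05 and 1 lower by DESeq2, and a list median of 0.05. Catalase, *Cat*, stood at -0.03 and the ferritin chain *Fth1* at 0.00 on the log2 scale.

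Several of the largest increases lay in genes that liver hardly expresses. *Nptx1* (chr11:119538719-119547753), a secreted pentraxin of neurons, stood at 0.0708, 0, 0.123, 0.743 and 0.303 CPM in vehicle and 33.7, 79.2, 33, 34.4 and 30.04 CPM in treated livers. It rose in all 5 treated mice, most in replicate 2, by 162-fold (log2 fold change 7.34 ± 0.54 (SE), edgeR adjusted p = 5.00e-13; 6.97, adjusted p = 1.26e-12 without replicate 2). The log2 fold change was 8.22 without vehicle replicate 4, the vehicle liver with the highest level, so the size of the fold depends on single libraries while the call held without any 1 of the 10. *Insl6*, a relaxin-like peptide of testis, rose 20.5-fold from 0.0636 to 0.371 CPM to 3.66, 4.88, 3.62, 3.92 and 4.32 CPM (log2 fold change 4.36 ± 0.33 (SE), edgeR adjusted p = 5.00e-13), with treated livers close together. *Cyfip2*, a regulator of actin through the WAVE complex, stood at 0.763 to 2.27 CPM in vehicle and 22.5, 59.1, 22.6, 23.2 and 20.1 CPM in treated livers (log2 fold change 4.24 ± 0.33 (SE), edgeR adjusted p = 1.75e-12), again highest in replicate 2. In *Col4a3* and *Col4a4*, the type IV collagen chains of kidney and lung basement membrane, replicate 2 was instead the lowest treated liver. *Col4a3* stood at 0.708, 3.75, 1.36, 2.23 and 1.57 CPM in vehicle and 45.9, 10.05, 51.1, 48.5 and 56.7 CPM in treated livers (log2 fold change 4.45 ± 0.56 (SE), edgeR adjusted p = 5.45e-07; 4.70, adjusted p = 5.78e-08 without replicate 2), and its exons overlap those of *C430014B12Rik*. *Col4a4*, whose start lies 71 bases away on the opposite strand, stood at 0.354, 0.509, 0.308, 0.186 and 0.253 and 4.04, 1.26, 4.64, 4.62 and 5.46 CPM (log2 fold change 3.60 ± 0.46 (SE), edgeR adjusted p = 7.23e-07), so both chains rose and both were lowest in the same treated liver. The liver chains *Col4a1* (0.45) and *Col4a2* (0.36) were not called.

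Other large increases remained at low levels. *Siglecf*, a sialic acid lectin of eosinophils and some macrophages, had 2 reads in the 5 vehicle and 144 in the 5 treated libraries, a ratio of 61.7 (exact 95% interval 16.8 to 514, counting error only). It stood at 1.22, 2.22, 1.01, 1.8 and 0.398 CPM in treated livers. Both vehicle reads lay in replicate 3, and the fitted log2 fold change of 5.501 ± 0.67 (SE) went from 5.18 to 7.86 with 1 library left out, the highest without that vehicle library, which leaves the vehicle group at 0 reads. *Sorcs3*, a sorting receptor of brain, stood at 1.45, 2.53, 1.67, 1.35 and 1.14 CPM in treated livers and at most 0.127 in vehicle (log2 fold change 4.64 ± 0.55 (SE), edgeR adjusted p = 1.24e-07). *Fabp12*, a fatty acid binding protein of retina and testis, stood at 1.29, 5.81, 2.68, 1.41 and 0.739 CPM in treated livers and at most 0.152 in vehicle (log2 fold change 4.81 ± 0.75 (SE), edgeR adjusted p = 3.97e-05; 4.05, adjusted p = 0.00124 without replicate 2). Among 14 tested genes known from this and other dioxin studies to come on in liver, 3 were called higher and 0 lower, *Nptx1*, *Fabp12* and *Enpp2*. That list was drawn in part from these samples and is no independent evidence of direction, and *Enpp2*, which makes lysophosphatidic acid, was not silent at 87 ± 18.6 CPM (SD, n = 5) in vehicle livers (log2 fold change 0.73 ± 0.17 (SE), edgeR adjusted p = 0.0139). Its call ended without any 1 of 3 of the 10 libraries (highest adjusted p = 0.0697, without TCDD 1 µg/kg replicate 1).

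Of the 44 lists, de novo lipogenesis had the lowest median. This list, which runs from citrate cleavage to desaturation and glyceride assembly, had 4 of 23 genes called lower and 0 higher, with 22 of 23 below zero and a median of -0.48 (0.00 over all genes; -0.61 and 5 called lower without replicate 2). *Fasn*, the fatty acid synthase, stood at 1144, 645, 466, 1574 and 569 CPM in vehicle and 231, 295, 374, 225 and 285 CPM in treated livers. Vehicle livers varied more than 3-fold, the lowest lay above the highest treated liver, and the level fell to 32.1% of vehicle (log2 fold change -1.64 ± 0.34 (SE), edgeR adjusted p = 0.00336). *Acly*, which cleaves citrate to acetyl-CoA, stood at 638, 407, 288, 881 and 304 CPM and 195, 202, 273, 255 and 171 CPM (log2 fold change -1.20 ± 0.28 (SE), edgeR adjusted p = 0.0113), and was no longer called without vehicle replicate 4, its highest library (adjusted p = 0.0919). *Acaca*, the acetyl-CoA carboxylase, fell by 0.84 (log2 fold change -0.84 ± 0.17 (SE), edgeR adjusted p = 0.00181) and *Elovl6*, which elongates palmitate, by 1.61 on the log2 scale (log2 fold change -1.61 ± 0.36 (SE), edgeR adjusted p = 0.00736). Among members picked after their values were seen, those not called were *Pnpla3* at -2.04, *Thrsp* at -1.16, *Scd1* at -0.88 and the regulators *Srebf1* at -0.69 and *Mlxipl* at -0.22.

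Enzymes that feed sugar carbon into this pathway were lower as well. Of 27 glycolysis genes, 4 were called lower (14.8%, against 0.515% of all genes) and 1 higher (3.7%, against 1.24%). Without replicate 2 the counts were 3 lower and 1 higher. *Pklr*, the liver pyruvate kinase, stood at 368, 287, 259, 431 and 228 CPM in vehicle and 99.8, 90.5, 115, 76 and 108 CPM in treated livers. The groups were well separated, and the level fell to 31.1% (log2 fold change -1.69 ± 0.23 (SE), edgeR adjusted p = 3.34e-06). *Pkm*, the pyruvate kinase of muscle and proliferating cells, moved the other way, from 7.08, 4.07, 4.93, 4.7 and 4.5 CPM to 11, 14.8, 15.7, 17.9 and 17.3 CPM (log2 fold change 1.61 ± 0.22 (SE), edgeR adjusted p = 4.43e-06). Exons of *Pklr* overlap those of *Hcn3*, and reads there cannot be told apart. *Khk*, the fructokinase that opens fructose breakdown, fell as well. It stood at 520.1, 369, 332, 409 and 409 CPM and 199.5, 163, 179, 204 and 221 CPM (log2 fold change -1.08 ± 0.17 (SE), edgeR adjusted p = 2.98e-05). *Tkfc*, the triokinase that completes the fructose route, was looked up after these values were seen and was also lower (log2 fold change -0.56 ± 0.14 (SE), edgeR adjusted p = 0.0183; -0.53, adjusted p = 0.0618 without replicate 2). The call of *Tkfc* ended without any 1 of 3 of the 10 libraries (highest adjusted p = 0.0917, without vehicle replicate 1). *Gpi1*, the glucose phosphate isomerase, was also called lower, close to the limit (log2 fold change -0.30 ± 0.08 (SE), edgeR adjusted p = 0.0433).

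Genes of fat uptake were called higher in small number. Of 24 genes for fatty acid uptake and lipid droplets, 2 were called higher (8.33%, against 1.24% of all genes) and 0 lower. *Cd36*, the fatty acid translocase, stood at 162, 144, 109.8, 232 and 147 CPM in vehicle and 339, 262, 233, 284 and 306 CPM in treated livers (log2 fold change 0.84 ± 0.18 (SE), edgeR adjusted p = 0.00351), and *Lpl*, a lipoprotein lipase that adult liver normally holds at a low level, at 28.7, 13.9, 13.7, 12.9 and 16.4 and 29.5, 56.4, 46.3, 49.9 and 42.5 CPM (log2 fold change 1.398 ± 0.33 (SE), edgeR adjusted p = 0.014). The gap between groups was narrow for both, and for *Lpl* came down to the highest vehicle and the lowest treated liver. Among 29 genes of fatty acid oxidation and ketogenesis only the peroxisomal thiolase *Acaa1b* was called (log2 fold change -0.74 ± 0.19 (SE), edgeR adjusted p = 0.0313), with overlapping groups and a call that ended without any 1 of 7 of the 10 libraries (highest adjusted p = 0.142, without vehicle replicate 5). Among 22 apolipoprotein and VLDL genes *Apoc2*, the cofactor of lipoprotein lipase, was lower (log2 fold change -0.57 ± 0.14 (SE), edgeR adjusted p = 0.0184) and the others were not called, though 17 of the 22 lay below zero. The call of *Apoc2* ended without any 1 of 3 of the 10 libraries (highest adjusted p = 0.0696, without vehicle replicate 1).

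**Figure D4:**
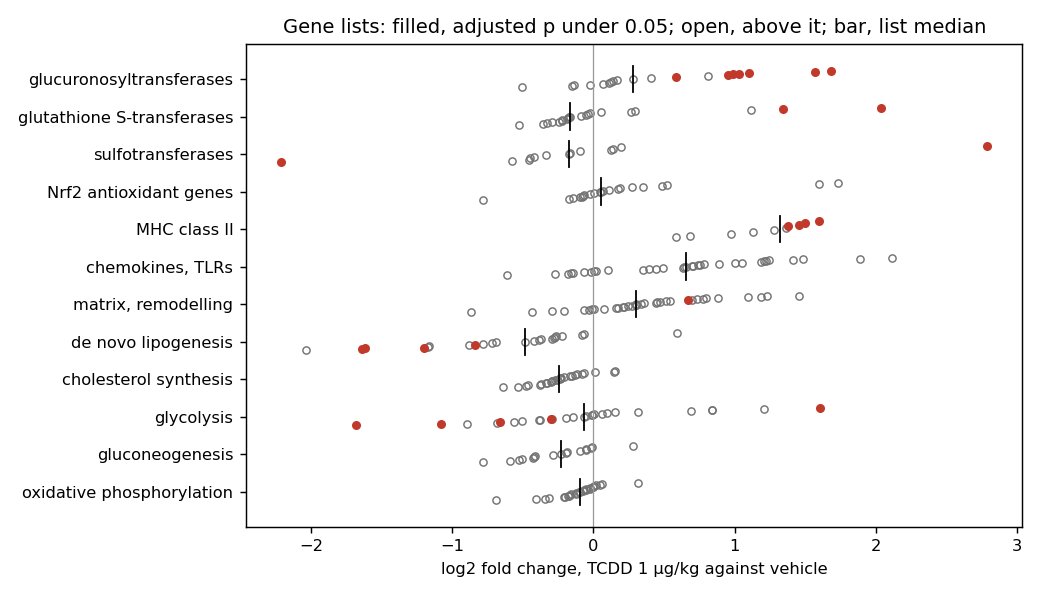
Log2 fold change at 1 µg/kg against vehicle for the tested genes of 12 lists, 1 circle per gene, filled red where called and open where not, with a black bar at each list's median. Medians were 1.32 for MHC class II, 0.66 for chemokines and Toll-like receptors (TLRs) and -0.48 for lipogenesis, against 0.00 over all genes.

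Among genes with at least 10 reads on average over the 10 libraries, the steepest called decrease was that of *Serpina7* (chrX:139079257-139085236), thyroxine-binding globulin, a carrier of thyroid hormone in blood. It stood at 101, 39.9, 47.9, 29.6 and 23 CPM in vehicle and 4.19, 3.96, 2.75, 2.05 and 2.05 CPM in treated livers. Every treated liver was far below the lowest vehicle liver, and the fitted level was 6.31% of vehicle (log2 fold change -3.99 ± 0.41 (SE), edgeR adjusted p = 3.01e-09). *Ttr*, transthyretin, the other thyroxine carrier made by liver and one of the hepatocyte markers, fell from 7409.7, 5719, 5608, 5793 and 6319 CPM to 4690.3, 4757, 4660.2, 4432 and 4993 CPM (log2 fold change -0.39 ± 0.09 (SE), edgeR adjusted p = 0.00901). *Serpina6*, the corticosteroid carrier, was picked after its values were seen and was higher (log2 fold change 0.73 ± 0.18 (SE), edgeR adjusted p = 0.019), with overlapping groups and a call that ended without any 1 of 4 of the 10 libraries (highest adjusted p = 0.0873, without vehicle replicate 1).

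Among the other large decreases, *Lepr*, the leptin receptor, stood at 8.35, 9.98, 14.5, 13.1 and 7.88 CPM in vehicle and 3.2, 2.95, 3.04, 3.47 and 4.44 CPM in treated livers (log2 fold change -1.66 ± 0.34 (SE), edgeR adjusted p = 0.0028) and was the only call among 19 genes of the growth hormone and IGF axis. *Mup3*, a major urinary protein, fell from 3019, 2687, 3692, 2004 and 3627 CPM to 673, 1562, 1419, 788 and 933 CPM (log2 fold change -1.48 ± 0.29 (SE), edgeR adjusted p = 0.00135). *Mup7*, of the same near-identical family, was called higher with one far liver, replicate 2, with 1.37, 17.4, 2.75, 2.18 and 1.02 CPM in treated and 0.309 to 1.02 CPM in vehicle livers (log2 fold change 2.81 ± 0.70 (SE), edgeR adjusted p = 0.0214; 1.298, adjusted p = 0.494 without replicate 2). The call of *Mup7* ended without any 1 of 5 of the 10 libraries, replicate 2 among them. *Adam11*, a catalytically inactive ADAM protein, stood at 6.37, 5.6, 3.57, 5.07 and 7.18 CPM and 0.914, 1.46, 1.59, 1.09 and 1.37 CPM (log2 fold change -2.09 ± 0.32 (SE), edgeR adjusted p = 2.31e-05). *Slc2a4*, the insulin-sensitive glucose transporter of muscle and fat, was rare throughout at 0.708, 1.34, 0.678, 3.9 and 1.16 CPM and 0.457, 0.0842, 0.145, 0.449 and 0.398 CPM, and the call ended without vehicle replicate 4 (adjusted p = 0.169), treated replicate 2 or treated replicate 3. Also near the detection limit were *Lmod3* (log2 fold change -2.02 ± 0.56 (SE), edgeR adjusted p = 0.0446), whose call ended without any 1 of 8 of the 10 libraries (highest adjusted p = 0.172, without TCDD 1 µg/kg replicate 2), and the non-coding *Gm13021* (log2 fold change -2.77 ± 0.56 (SE), edgeR adjusted p = 0.002) and *Gm12265* (log2 fold change -1.68 ± 0.33 (SE), edgeR adjusted p = 0.00151). *Gm12265* overlaps exons of *Tom1l2*, and without strand information their reads cannot be told apart.

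Antigen presentation was the immune list with the most calls. MHC class II molecules carry peptides on macrophages, dendritic cells and B cells, and 4 of 10 genes on their list were called higher and 0 lower, with all 10 above zero and a median of 1.32 (1.41 and 4 calls without replicate 2). Over all genes the share called higher was 1.24%. *H2-Eb1* stood at 10.3, 7.95, 9.24, 11.8 and 13.2 CPM in vehicle and 17.7, 19.1, 43.4, 54.4 and 25.6 CPM in treated livers (log2 fold change 1.60 ± 0.42 (SE), edgeR adjusted p = 0.0282), and the invariant chain *Cd74* at 24.2, 19.97, 23.7, 31.3 and 34 CPM and 38, 50.4, 88.4, 111 and 58.3 CPM (log2 fold change 1.38 ± 0.37 (SE), edgeR adjusted p = 0.0386). Replicates 3 and 4 were the highest treated livers in both genes and replicates 1 and 2 lay closest to the vehicle range. *H2-Ab1* (1.496) and *H2-Aa* (1.45) had the same profile, and *Ciita*, the class II transactivator, was not called (log2 fold change 1.36 ± 0.45 (SE), edgeR adjusted p = 0.126). All 4 calls ended without treated replicate 4, with adjusted p from 0.135 to 0.17, and without treated replicate 3 or any of vehicle replicates 1 to 4.

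Among leukocyte markers the T, NK and B cell sum was higher in treated livers, and those of the other two lists overlapped between groups. Summed over 12 Kupffer cell and macrophage markers, vehicle livers held 227 to 372 CPM and treated livers 275 to 649 CPM, with overlap (exact permutation test, two-sided, p = 0.0714, 0.113 adjusted over 10 marker lists). For 9 T, NK and B cell markers the sums were 6.47 to 9.04 and 10.1 to 16.3 CPM, without overlap (exact p = 0.00794, the smallest that 5 against 5 allows, 0.0397 adjusted). Neutrophil and monocyte markers summed to 2.35 to 3.68 and 2.51 to 8.22 CPM (exact p = 0.0317, 0.0794 adjusted), and of these *Ly6g* had no read. No single marker in these 3 lists was called by edgeR, with 7 of 26 tested at an unadjusted p under 0.05 (2270 of 17464 over all genes) and 0 by DESeq2. In bulk liver RNA, more or fewer cells of a type and more or less RNA per cell cannot be told apart, and the part of these cells in the MHC class II values was not tested. Hepatocyte markers, with overlapping sums, had a treated-to-vehicle ratio of 0.89 (exact p = 0.0794) and adipocyte markers reached at most 0.152 CPM in any liver. Endothelial markers had a treated-to-vehicle ratio of 0.966 (exact p = 0.611), stellate and fibroblast markers 1.22 (exact p = 0.0556), cholangiocyte markers 0.869 (exact p = 0.151) and erythroid markers 0.776 (exact p = 0.0238, 0.0794 adjusted). The pancreas list fell without overlap, from 14.5 to 21.2 CPM down to 5.8 to 8.17 (exact p = 0.00794), with the elastase *Cela1* lower (log2 fold change -1.42 ± 0.19 (SE), edgeR adjusted p = 2.37e-06), and the other 7 markers together reached at most 0.0725 CPM.

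Transport and smaller metabolic functions changed in single genes. Of 16 ABC transporters 3 were called higher (18.8%, against 1.24% of all genes) and 0 lower. *Abcc3*, which exports glucuronides and bile acids to blood, stood at 257, 368, 302, 272 and 271 CPM in vehicle and 509, 487, 405, 464 and 473 CPM in treated livers (log2 fold change 0.67 ± 0.12 (SE), edgeR adjusted p = 5.90e-04), *Abcg1*, a sterol exporter, rose by 1.02 and the peroxisomal *Abcd2* by 0.83 on the log2 scale. Of 21 uptake carriers 2 were called higher, the bile acid carrier *Slc10a2* (log2 fold change 1.43 ± 0.34 (SE), edgeR adjusted p = 0.0123) and the dicarboxylate carrier *Slc13a3* (log2 fold change 0.90 ± 0.23 (SE), edgeR adjusted p = 0.0282), and neither was called without replicate 2 (adjusted p = 0.0601 and 0.0504). *Cyp7b1*, an oxysterol hydroxylase, was the 1 call among 17 bile acid genes (log2 fold change 0.67 ± 0.16 (SE), edgeR adjusted p = 0.0178; 0.57, adjusted p = 0.0963 without replicate 2). *Aox3*, an aldehyde oxidase, rose 1.81-fold (log2 fold change 0.86 ± 0.17 (SE), edgeR adjusted p = 0.00175), *Nags*, which makes the activator of the urea cycle, 1.54-fold (log2 fold change 0.62 ± 0.12 (SE), edgeR adjusted p = 0.00135) and *Urad*, a urate-degrading decarboxylase, 1.55-fold with overlap (log2 fold change 0.63 ± 0.17 (SE), edgeR adjusted p = 0.0371). *Nags* was the only call among 16 urea cycle and glutamine genes, of which 14 lay below zero. The median of that list was -0.31 (-0.24 without replicate 2). Calls also ended for *Abcd2* without any 1 of 9 (highest adjusted p = 0.152, without vehicle replicate 5), *Urad* without any 1 of 8 (highest adjusted p = 0.159, without vehicle replicate 5) and *Abcg1* without any 1 of 2 (highest adjusted p = 0.0554, without vehicle replicate 4) of the 10 libraries. For *Slc13a3* the call ended without any 1 of 8 (highest adjusted p = 0.106, without vehicle replicate 5) and for *Cyp7b1* without any 1 of 3 of the 10.

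Some calls ended without replicate 2, though not without it alone. Those of *Phkb*, *Col14a1* and *C6* ended without any 1 of 4, 6 and 4 of the 10 libraries, replicate 2 among them. The glycogen gene *Phkb* (log2 fold change 0.35 ± 0.09 (SE), edgeR adjusted p = 0.0182), the fibrillar collagen partner *Col14a1* (log2 fold change 0.67 ± 0.17 (SE), edgeR adjusted p = 0.0282) and the complement component *C6* (log2 fold change 1.401 ± 0.35 (SE), edgeR adjusted p = 0.0194) were each called higher with all 5 livers, and without that library adjusted p was 0.106, 0.0863 and 0.195 in turn. The complement protease *C1s1* was lower in all 5 treated livers, at 340.0 to 389.7 CPM against 446 to 510.3 (log2 fold change -0.39 ± 0.08 (SE), edgeR adjusted p = 0.00135), and *Tnfrsf19*, a Wnt-responsive receptor of pericentral hepatocytes, was higher (log2 fold change 1.00 ± 0.26 (SE), edgeR adjusted p = 0.0277), its call ending without any 1 of 6 of the 10 libraries (highest adjusted p = 0.102, without TCDD 1 µg/kg replicate 1). In the matrix list 28 of 35 genes lay above zero (median 0.30) with *Col14a1* the only call.

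In 17 of the 44 lists edgeR called no gene. Together these lists held 370 tested genes, and DESeq2 called 1 higher and 6 lower. At an unadjusted p under 0.05, 30 were higher and 31 lower, beside 2270 of 17464 over all genes in either direction. The directions differed between lists, with 10 higher and 0 lower for chemokines and Toll-like receptors and 0 higher and 6 lower for iron and heme. Cholesterol synthesis was among the lists without a call, with 23 of 26 genes below zero, a median of -0.25 and *Sc5d* at -0.47 ± 0.21 (SE). Gluconeogenesis had a median of -0.23, with *Pck1* at -0.50 ± 0.38 and *Tat* at -0.59 ± 0.39 (SE). For chemokines and Toll-like receptors the median was 0.66 over 33 genes, most of them rare, while the abundant *Cxcl12* stood at -0.02. Medians stood at 0.19 for interferon-stimulated genes, 0.20 for cell cycle genes (*Ccnd1* -0.26), -0.02 for acute phase proteins (*Fga* -0.02), -0.09 for oxidative phosphorylation (*Atp5b* 0.06), 0.02 for p53 targets (*Perp* 0.23), -0.07 for the integrated stress response (*Herpud1* -0.23) and -0.11 for housekeeping genes (*Eef1a1* 0.20). Also without a call were the aldehyde dehydrogenases (median 0.09, *Aldh2* 0.08), one-carbon metabolism (-0.11, *Mat1a* -0.43), retinoid metabolism (-0.05, *Rbp4* -0.19), iron and heme (0.02, *Trf* -0.31) and the circadian clock (-0.13, *Nr1d2* -0.13). Without replicate 2 the median was -0.13 for acute phase proteins, -0.15 for retinoid metabolism, 0.13 for cell cycle genes, -0.05 for oxidative phosphorylation, -0.07 for the clock and -0.03 for iron and heme, which changed sign.

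Between 0.3 and 1 µg/kg, *Cyp1b1* and *Ahrr* rose while the difference of *Cyp1a1* was not called, and between 1 and 3 µg/kg *Tiparp* rose. In the same fit, 20 genes were higher at 1 than at 0.3 µg/kg (0.115% of genes tested) and 0 lower (0%; 510 at an unadjusted p under 0.05 and 1 by DESeq2), and all 20 were also called against vehicle. Between 1 and 3 µg/kg, 27 genes were higher at 3 (0.155%) and 4 lower (0.0229%), of which 14 and 2 had been called in the same direction at 1 µg/kg. The livers at 1 µg/kg enter the comparison with vehicle and both steps, on the same side at the lower step and on opposite sides at the upper. These overlaps are therefore partly set by shared livers and cannot be set side by side. *Cyp1b1* averaged 2.61 ± 0.576, 109 ± 59.2 and 470.5 ± 50.9 CPM (SD, n = 5) at 0.3, 1 and 3 µg/kg, with both steps called (log2 differences 5.40 ± 0.59 (SE), adjusted p = 1.37e-07, and 2.11 ± 0.48 (SE), adjusted p = 0.0468). *Ahrr* also rose at both steps (3.77 ± 0.37 (SE), adjusted p = 1.35e-08, and 1.34 ± 0.29 (SE), adjusted p = 0.0271), and so did *Insl6* (1.70 ± 0.24 (SE), adjusted p = 8.23e-05, and 1.09 ± 0.21 (SE), adjusted p = 0.00911). *Nptx1* (1.97 ± 0.35 (SE), adjusted p = 0.00305), *Sult5a1* (1.67 ± 0.29 (SE), adjusted p = 0.00144), *Cyfip2* (1.28 ± 0.27 (SE), adjusted p = 0.0264) and *Col4a3* (2.51 ± 0.49 (SE), adjusted p = 0.00826) were called at the lower step, and at the upper step stood 0.99, 0.47, 0.14 and 0.34 on the log2 scale.

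*Cyp1a1* averaged 3415 ± 766, 4593 ± 418 and 5851 ± 469 CPM (SD, n = 5) at 0.3, 1 and 3 µg/kg, and neither step was called (0.43 ± 0.56 (SE), adjusted p = 0.965, and 0.35 ± 0.56 (SE), adjusted p = 0.925). These SE rest on the spread over all dose groups, which was wide in vehicle (SD 1.43 of log2 values) and narrow at 1 and 3 µg/kg (0.133 and 0.116). All 5 livers at 3 µg/kg (5242 to 6436 CPM) lay above all 5 at 1 µg/kg (4001 to 5140 CPM), while those at 0.3 µg/kg (2898 to 4714 CPM) overlapped with 1 µg/kg. The missing calls therefore do not show that the level had stopped rising. *Tiparp*, the gene not called at 1 µg/kg, averaged 12.7 ± 1.42, 16.2 ± 4.1 and 43.7 ± 11.6 CPM (SD, n = 5), with the lower step at 0.37 ± 0.17 (SE), adjusted p = 0.859 and the upper step called (1.42 ± 0.17 (SE), adjusted p = 1.75e-06). Among repressed genes, *Serpina7*, *Pklr* and *Mup3* had no called step. *Serpina7* averaged 10.01 ± 5.11, 3.0 ± 1.02 and 1.63 ± 0.671 CPM (lower step -1.73 ± 0.40 (SE), adjusted p = 0.0616), *Pklr* 154, 97.8 and 70.02 CPM and *Mup3* 2262, 1075 and 489 CPM. All doses share the same vehicle livers, against which *Cyp1a1* had log2 fold changes of 6.78 at 0.1 and 9.98 at 30 µg/kg beside 9.25 at 1 µg/kg, and *Tiparp* -0.21, 3.63 and 0.26.

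**Figure D5:**
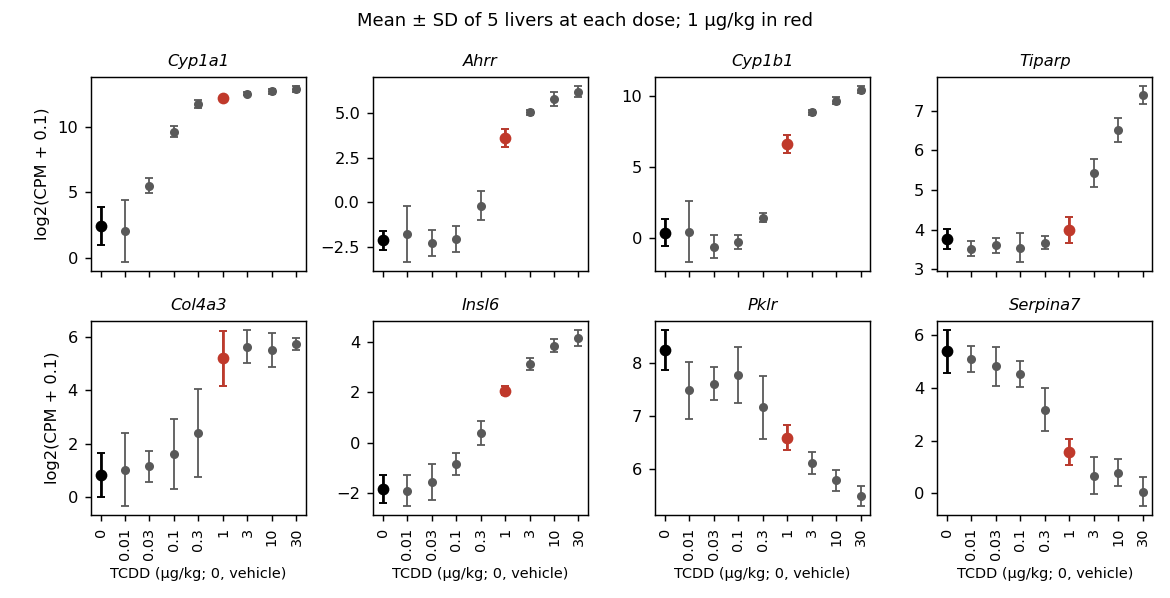
Mean log2(CPM + 0.1) with SD of 5 livers (vertical axis) at each dose in µg/kg (horizontal axis, evenly spaced, 0 is vehicle) for 8 genes, with vehicle in black and 1 µg/kg in red. At 1 µg/kg *Cyp1a1* sits close to its levels at 0.3 and 3 µg/kg, *Cyp1b1*, *Ahrr* and *Insl6* lie between theirs, *Tiparp* lies near the vehicle level, and *Pklr* and *Serpina7* lie below vehicle.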

How the data were processed

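Livers of 45 female C57BL/6 mice, 5 per dose group, were sequenced as RNA libraries of single 50-base reads, and each library was deposited as 1 table of gene counts. Per the submitters' processing notes and the methods, the authors checked reads with FastQC 0.11.2, trimmed them, aligned them to GRCm38 with TopHat 1.4.1, handled alignments with SAMtools 0.1.19 and made the counts with HTSeq 0.6.1, in which reads with more than 1 alignment or assignable to more than 1 gene were left out. Rows that name no gene were kept out of library sizes and tests, and among uniquely aligned reads 10.8 to 12.7% lay on no gene and 1.4 to 1.81% on more than 1 in the 10 libraries compared. The counts carry no normalization, and strand use is not given in the sources used here. Random sets of samples were sequenced together in pools over several lanes. The pools are not given in the labels, so an effect of the pool could not be examined.

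Genes with over 4 reads in any of the 45 libraries were tested (17464 of 39179). Counts were scaled by TMM, and 1 coefficient per dose group was fitted to all 45 libraries by edgeR 4.0.16 (quasi-likelihood test, with limma 3.58.1, R 4.3.3). Benjamini-Hochberg adjustment ran over all genes tested at a limit of 0.05. Fold changes and SE are those of this fit, and printed levels are CPM on the TMM-scaled library size. Every adjusted p is from this edgeR fit unless another test is named. DESeq2 1.42.0 was an alternative, and both tools were tested on simulated counts. Depth was 13.4 to 34.1 M reads per library in the 10 libraries compared. Intervals on reads are exact and cover counting error only. No 2 libraries were identical.

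The comparison and the gene lists were chosen with earlier results of these data known. Named genes were the 12 largest increases and the 12 largest decreases among called genes with at least 10 reads on average and no overlap between groups, every gene of the AhR battery and complex, and from each of the other lists up to 4 called genes, largest change first, filled up to 2 with the most abundant members where fewer were called. A few genes that meet this rule count in the lists but are not reported here by name. Any other list member or gene that the text names was chosen after its values were seen. Of 957 list entries 949 matched a symbol, and *Cyp2c44*, *Pnp*, *Hjv*, *C5*, *Klkb1*, *Ctgf*, *Rhbg* and *Lcn13* are not analysed here. Marker sums were compared by exact two-sided permutation tests of 5 against 5 livers. Promoters were RefSeq sequences of GRCm38.p6. Alternatives changed the scaling, the genes tested, the libraries fitted, the depth and the tool, and left out each library in turn. Libraries carry no numbers in the labels, and replicates are numbered in the order of deposition.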

Additional observations from a re-analysis of the deposited data

Results flagged for a closer look

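Of 281 groups of 5 livers examined over 148 named genes, 29 had 1 liver far from the other 4 (its gap over the whole range above 0.71). Some of these genes were picked after their values were seen, so the count cannot be set against a chance rate. TCDD 1 µg/kg replicate 2 was that liver in 19 of them. Values in parentheses are the range of the other 4 livers of the group.

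Among genes called higher at 1 µg/kg, replicate 2 was the highest liver in *Ahrr* at 22.6 CPM (8.76 to 11.1), *Cyfip2* at 59.1 CPM (20.1 to 23.2), *Exoc3* at 63 CPM (49.9 to 53.2), *Mup7* at 17.4 CPM (1.02 to 2.75), *Notch1* at 70.8 CPM (23.1 to 32.8) and *Nptx1* at 79.2 CPM (30.04 to 34.4). It was the lowest in *Col4a3* at 10.05 CPM (45.9 to 56.7) and *Urad* at 44.3 CPM (52.1 to 54). Among genes not called, it was the highest in *Arntl* at 13.1 CPM (0.685 to 1.23), *Hsp90ab1* at 962 CPM (829.9 to 865), *Hspa5* at 724 CPM (459 to 528), *Pdk4* at 31.3 CPM (5.78 to 8.91) and *Serpina3k* at 8989 CPM (5042 to 6186). It was the lowest in *Arnt* at 45.1 CPM (63.8 to 67.8), *Cxcl12* at 421 CPM (530.4 to 564), *Igfbp4* at 849 CPM (1293 to 1399), *Nr1i3* at 577 CPM (1009.7 to 1126), *Rbp4* at 1951 CPM (2662 to 2865) and *Tef* at 94.1 CPM (274 to 324). These include clock genes (*Arntl*, *Tef*), chaperones (*Hspa5*, *Hsp90ab1*) and the nuclear receptor *Nr1i3*, the constitutive androstane receptor.

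In the other treated libraries, replicate 1 was the highest in *Myc* at 84.3 CPM (4.24 to 13.9) and *Ugt1a9* at 264 CPM (131 to 158), and replicate 4 in *Cyp1b1* at 213 CPM (62.3 to 92.2). Vehicle replicate 1 was the highest vehicle liver in *Gm13021* at 2.41 CPM (0.636 to 0.99), *Hspa5* at 812 CPM (476 to 566), *Lpl* at 28.7 CPM (12.9 to 16.4) and *Pkm* at 7.08 CPM (4.07 to 4.93) and the lowest in *Slc46a3* at 43.7 CPM (71.7 to 76.8). Vehicle replicate 4 was the highest in *Atp5a1* at 1185 CPM (1020.2 to 1063) and *Slc2a4* at 3.9 CPM (0.678 to 1.34). Without vehicle replicate 4 *Slc2a4* was no longer called (log2 fold change -1.77 against -2.44, edgeR adjusted p = 0.169), and the others among these that were called, *Cyp1b1*, *Ugt1a9*, *Lpl*, *Pkm*, *Gm13021* and *Slc46a3*, kept their call without the library named.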

How the results depend on the processing

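Leaving out 1 of the 10 libraries in turn gave 148 to 182 genes higher, 56 to 100 lower, 93 to 116 at least 2-fold higher and 26 to 33 at least 2-fold lower than vehicle. The lower count was 56 without TCDD 1 µg/kg replicate 2 and 57 without vehicle replicate 1, against 90. Fitting the 10 libraries alone, which estimates the spread from fewer groups, gave 295 higher and 164 lower, and DESeq2 gave 260 and 163. Without TMM scaling 314 were higher and 65 lower, 82.8% of calls higher against 70.7% with TMM, and the median of all genes was 0.07. Other filters, DESeq2's size factors and thinning to equal depth gave 190 to 223 higher and 74 to 116 lower. Between 1 and 0.3 µg/kg 20 genes differed (14 to 21 with 1 library left out, 32 by DESeq2), and between 3 and 1 µg/kg 31 differed (10 to 31), with 18, 14 and 10 without TCDD 1 µg/kg replicates 1, 3 and 4. The cause of these shifts was not tested. Of 93 called genes named, 61 kept their call whichever library was left out, 32 lost it without at least 1, 18 of them without replicate 2, and none changed direction. Of 55 named genes not called, *Ptges3* became called without vehicle replicate 4 and *Ugp2* in the fit of the 10 libraries. Genes with few vehicle reads, such as *Sorcs3* and *Siglecf*, are those whose folds depth limits most. No paired analysis was made, because the mice were assigned to the dose groups at random and the design holds no pairs.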

Other observations

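Several increases outside the lists were picked after their values were seen, and are given as values. *Slc46a3*, a lysosomal solute carrier, stood at 43.7, 71.7, 76.8, 76.6 and 72.5 CPM in vehicle and 343, 255, 305, 345 and 327 CPM in treated livers (log2 fold change 2.21 ± 0.19 (SE), edgeR adjusted p = 1.23e-11). *Htatip2*, a short-chain dehydrogenase relative, stood at 50.7, 46.6, 37.2, 44.4 and 50.3 and 153, 199, 159, 195 and 167 CPM (log2 fold change 1.93 ± 0.13 (SE), edgeR adjusted p = 5.95e-14), and *Tuba8*, a divergent alpha tubulin, at 0.636 to 2.33 and 10.8 to 16.8 CPM (log2 fold change 3.15 ± 0.28 (SE), edgeR adjusted p = 3.83e-11). All 3 pairs of groups were far apart. *Tcf4*, a basic helix-loop-helix factor, rose 2.5-fold (log2 fold change 1.32 ± 0.11 (SE), edgeR adjusted p = 3.93e-12), *Ucp2*, a mitochondrial carrier, 3.53-fold (log2 fold change 1.82 ± 0.30 (SE), edgeR adjusted p = 1.29e-04), *Tert*, the telomerase subunit, 2.46-fold, with 8.63 to 13.6 CPM in vehicle and 24.7 to 27.1 CPM in treated livers (log2 fold change 1.298 ± 0.19 (SE), edgeR adjusted p = 7.17e-06), and *Notch1* 2.61-fold (log2 fold change 1.39 ± 0.23 (SE), edgeR adjusted p = 8.10e-05; 1.00, adjusted p = 0.00199 without replicate 2). *Hectd2os*, a non-coding gene that overlaps *Hectd2*, stood at 104 to 138 and 316 to 695 CPM (log2 fold change 1.91 ± 0.28 (SE), edgeR adjusted p = 9.34e-06), and without strand information the reads of both cannot be told apart.

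Smaller increases were also picked after their values were seen, and no list or test of their group stands behind them. *Hexa* (log2 fold change 0.48 ± 0.10 (SE), edgeR adjusted p = 0.00262), a subunit of beta-hexosaminidase, the mannosidase *Man2b1* (log2 fold change 0.56 ± 0.08 (SE), edgeR adjusted p = 5.19e-06), the thioesterase *Ppt1* (log2 fold change 0.32 ± 0.09 (SE), edgeR adjusted p = 0.0313) and the carboxypeptidase *Scpep1* (log2 fold change 0.40 ± 0.09 (SE), edgeR adjusted p = 0.00946) were called higher. The call of *Scpep1* ended without any 1 of 2 libraries and that of *Ppt1* without any 1 of 8. Picked in the same way, *Slc35d1*, which carries UDP-glucuronic acid into the endoplasmic reticulum, rose by 0.49 and the glycerol phosphate dehydrogenase *Gpd2* fell by 1.01 on the log2 scale.

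Some called genes lie side by side in the genome (GRCm38). *Exoc3*, an exocyst subunit 2385 bases from *Ahrr*, rose 1.6-fold from 33.8 ± 2.07 to 53.9 ± 5.2 CPM (SD, n = 5; log2 fold change 0.67 ± 0.09 (SE), edgeR adjusted p = 8.57e-07). *Mroh2a*, 7988 bases from *Ugt1a1*, rose 3.15-fold (log2 fold change 1.66 ± 0.24 (SE), edgeR adjusted p = 8.86e-06), and *Hjurp*, a centromere chaperone 181 bases further, 2.33-fold (log2 fold change 1.22 ± 0.19 (SE), edgeR adjusted p = 2.98e-05). *Ttc39a* and *Ttc39aos1*, 467 bases apart, rose 5.67-fold (log2 fold change 2.50 ± 0.49 (SE), edgeR adjusted p = 0.00147) and 3.88-fold (log2 fold change 1.956 ± 0.44 (SE), edgeR adjusted p = 0.00736). How often neighbours are called together over the genome was not tested.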
